A study of Homo sapiens with 12 samples.

Results

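The genes described here are 36 genes of mitosis: CDK1 and its cyclins, the Polo and Aurora kinases, the chromosomal passenger complex, the spindle checkpoint, the kinetochore, mitotic kinesins, and proteins of the spindle midzone and of condensed chromosomes. They were listed by name, with earlier results of these data known. All 36 were found by Ensembl identifier among the 58735 genes counted in each of 12 RNA sequencing libraries. The libraries came from HEK293T, an established line grown out of human embryonic kidney, in which the large T antigen of SV40 is present and which divides rapidly in culture. In the plasmid arm, cells received 500 ng of a plasmid for the microRNA miR-211 (3 libraries) or of a control plasmid (3 libraries). In the oligo arm, cells received at 1 nM an siRNA, of the Dicer-substrate type, that targets the U1 small nuclear RNA of the spliceosome (3 libraries) or a scrambled oligo (3 libraries), for which the labels give no dose. RNA was taken 24 h after transfection in every group. The oligo libraries carry WT in their labels and the plasmid libraries do not, and what it stands for is not explained there. The transfections were transient, and the share of cells that took up plasmid or oligo in each library is not known here. In such bulk RNA fewer dividing cells and less RNA per dividing cell cannot be told apart. Separate cultures are not named for the replicates in the labels, and the p-values therefore reflect the spread between libraries alone, possibly a technical one.

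Entry into mitosis is driven by CDK1 bound to cyclin B, with Polo-like and Aurora kinases acting beside it on centrosomes, chromosomes and the spindle. The kinetochore ties chromosomes to microtubules, the spindle checkpoint holds back the ubiquitin ligase APC/C until all chromosomes are attached, and securin (PTTG1) guards cohesin until anaphase. Most of these genes are transcribed in late cell cycle under B-MYB, FOXM1 and the DREAM complex, which binds their promoters through a cell cycle homology region (CHR, core TTTGAA), often near CCAAT boxes bound by NF-Y.

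Promoter sequences of RefSeq on GRCh38.p14, from 250 bases before to 50 after each start, were found for 31 of the 36 genes, and not for AURKA, BIRC5, BUB3, TPX2 and TTK. The 4 stretches of 100 bases printed next end at the base before a start, are written 5′ to 3′ along the gene, and carry in capitals each CHR core (TTTGAA, or TTCAAA on the other strand) and each CCAAT box (CCAAT, or ATTGG). CDC20, CDK1 (its second RefSeq start) and KIF11 show a CHR core close to the start with a CCAAT box before it, and SPC24 shows a promoter of the same set with a CCAAT box and no CHR core.
CDC20, chr1:43358881-43358980, plus strand: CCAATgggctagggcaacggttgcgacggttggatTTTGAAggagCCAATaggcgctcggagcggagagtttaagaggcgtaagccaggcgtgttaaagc
CDK1, chr10:60778378-60778477, plus strand: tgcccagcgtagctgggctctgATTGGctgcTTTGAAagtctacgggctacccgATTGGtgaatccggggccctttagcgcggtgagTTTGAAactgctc
KIF11, chr10:92593030-92593129, plus strand: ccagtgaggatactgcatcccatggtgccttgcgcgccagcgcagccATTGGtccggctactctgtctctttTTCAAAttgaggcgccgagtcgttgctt
SPC24, chr19:11155783-11155882, minus strand: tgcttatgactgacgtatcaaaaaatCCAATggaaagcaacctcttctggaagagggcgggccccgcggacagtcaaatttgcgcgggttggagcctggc
A CHR core on either strand was present in 21 of the 31 promoters (67.7%), against 14.5% of 9126 tested genes with an entry, and in 1 of 33 DNA replication genes (3.03%), which are induced earlier in the cycle. A CCAAT box was present in 24 of 31 (77.4%), against 44.3% of tested genes and 57.6% of the 33 DNA replication genes. Both motifs were present in 16 of 31 (51.6%) against 6.04% of tested genes. Of 119 related mitosis genes described below, 104 had an entry. Among these, 46.2% had a CHR core, 60.6% a CCAAT box and 27.9% both. The CHR core lay wholly within 75 bases before a start in 12 of 31 (38.7%), against 2.99% of tested genes, for example 29 bases before the starts of PLK1 and CCNB2 and 20 bases before that of PRC1. In 7 promoters (22.6%, against 4.26% of tested genes) CCAAT boxes were spaced 29 to 36 bases apart, a spacing range set after their positions were seen. Matches of both motifs overlapped in 1 promoter entry. Such a match is a description of the letters and not a measured binding site, and these libraries hold no binding data.

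**Figure D1:**
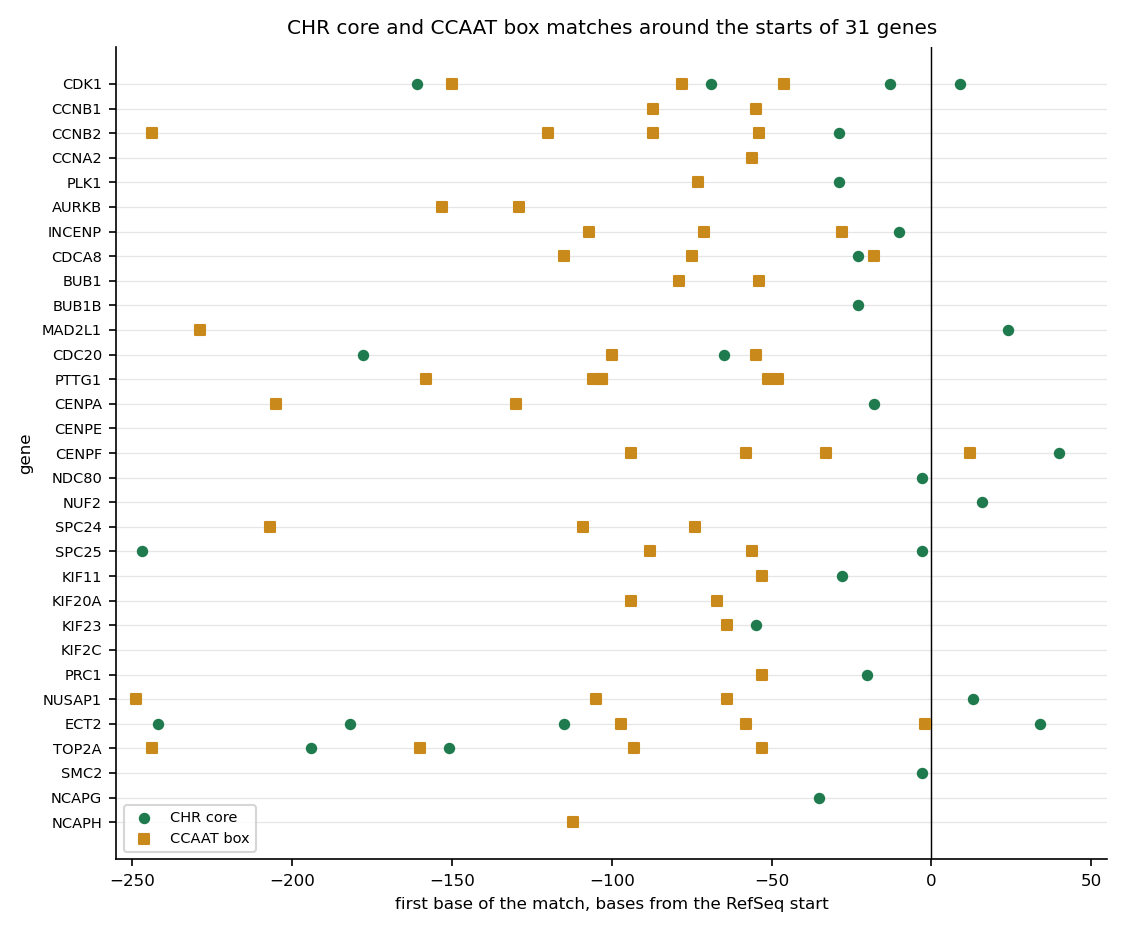
Position of each CHR core (circle) and CCAAT box (square) match on either strand in the promoter windows of 31 mitosis genes; the x axis gives the first base of the match in bases from the RefSeq start, and each row is 1 gene, with the starts of genes that have several laid over each other. CENPE and KIF2C hold no match, and in PLK1, CCNB2, KIF11 and PRC1 a CCAAT box lies before a CHR core that is nearer to the start.

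Counts over genes totalled 4515728 to 9290686 per library, and the 36 genes had 13 to 7336 counts each per library. MIR211, the gene carried by the plasmid, had 1646, 1997 and 1976 counts in the 3 miR-211 libraries and 1 to 9 in the other 9. The 15 genes of the targeted U1 RNA, near-identical copies of which each count is uncertain, summed to 18.9, 14.0 and 17.1 CPM (counts scaled to library size, here to the plain total) in replicates 1 to 3 of the siRNA, and to 19.4, 19.3 and 16.5 CPM in those of the scrambled oligo, so the groups overlapped and these counts do not show a lower U1 level in every library. U1 siRNA replicate 2 stood apart, with the lowest total and 44.5% of its uniquely mapped pairs outside annotated exons, against 14.5% to 25.5% in the other 11 libraries. Of the markers of the line, NEFL (69.8 to 108 CPM) and VIM (43.6 to 60.7 CPM) were present in all libraries, while PAX2 and LHX1 reached at most 0.670 CPM. The summed level of 9 markers of blood, fibroblast, endothelial, liver and pigment cells was 4.03 to 11.1 CPM in 11 libraries and 21.6 CPM in U1 siRNA replicate 2.

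Levels are read counts scaled to library size (CPM) after TMM scaling, the edgeR correction for library composition. The 36 genes were well expressed: their median mean level was 156 CPM, against 15.3 CPM for 12685 tested genes, and 33 of 36 lay above that gene median. Per kilobase of exon not shared with another gene, the level was highest for CCNB1 (307 CPM per kb over 12 libraries), which encodes cyclin B1, followed by securin PTTG1 (193) and survivin BIRC5 (151). PLK1 stood at 21.7 and CCNA2 at 16.3 CPM per kb. The lowest were PRC1 (6.56), CENPA (1.76) and INCENP (1.49). In CCNB1 the level per kb was 304 ± 18.6 (SD, n = 3) with miR-211 and 308 ± 11.2 (SD, n = 3) with the control plasmid. MAD2L1 (105), CDK1 (102) and BUB3 (101) followed, and their libraries overlapped. The coefficient of variation over 12 libraries ran from 4.17% in KIF23 to 19.6% in CENPA. In CENPA, at 13 to 34 counts per library, that was below the 21.6% that counting error alone gives, so variation in CENPA was not detectable above counting error. PTTG1 has near-identical copies elsewhere in the genome, so its count is uncertain.

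**Figure D2:**
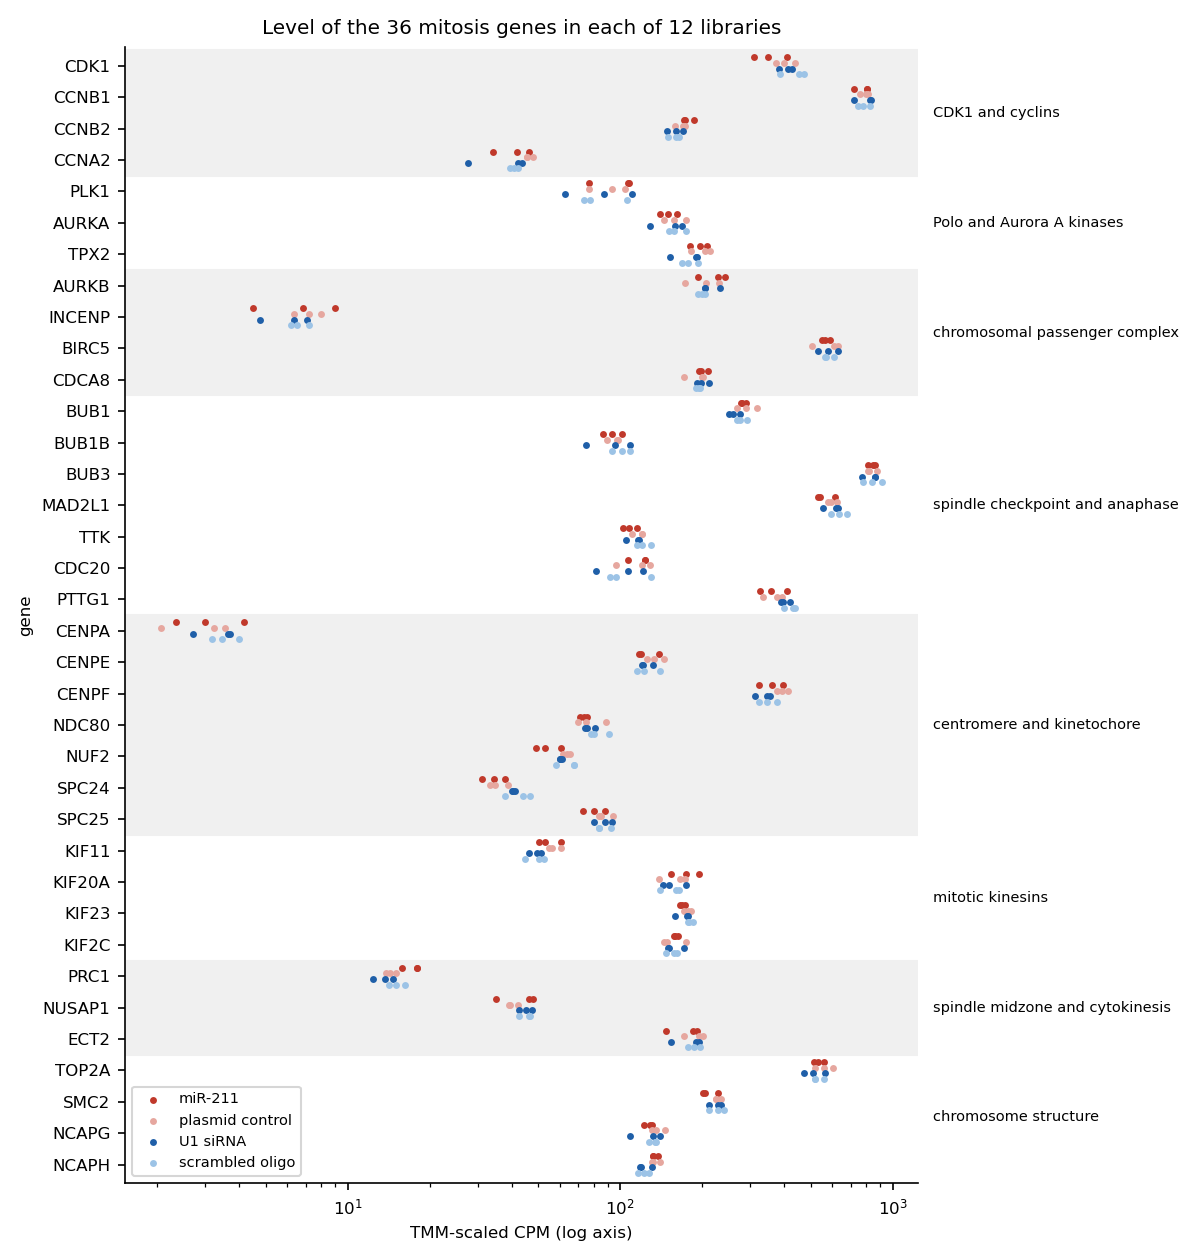
TMM-scaled CPM of each of the 36 genes (rows, grouped by role) in 12 libraries (points, coloured by group) on a log axis. CENPA and INCENP sit far to the left of the other genes, and for most genes the points of the 4 groups lie over each other.

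With miR-211, none of the 36 genes passed the adjusted threshold of 0.05 (edgeR quasi-likelihood test over 12685 genes, where 0.00788% were called, namely MIR211 alone; adjusted p 0.996 to 0.997 for the 36). DESeq2 and limma-voom called none of them either. Their fold changes were small. They ran from -0.22 in NUF2 to 0.28 in PRC1 on the log2 scale, with a median of -0.036 against 0.0079 for all tested genes. At an unadjusted p under 0.05 there were 2 of 36 (5.56%), NUF2 and PRC1, against 3.29% of all tested genes. With the replicate number as a block, which in this arm marks libraries that deviated together, there were 5 of 36 against 7.43% of all tested genes: CDK1 (log2 fold change -0.18) and NUF2 (-0.22) below 0, and AURKB (0.13), PRC1 (0.28) and KIF20A (0.14) above. In that fit too none of the 36 passed (edgeR adjusted p 0.613 to 0.991). Of the 36, 12 had a fold change above 0 (33.3%), against 51.8% of all tested genes, and this count moved with single libraries: it was 21 without plasmid control replicate 2, 7 without plasmid control replicate 1, and 21 when the share of pairs outside genes was a covariate. All tested genes are a background of lower level. The 1558 tested genes of like level (83.4 to 237 CPM) were also lower with miR-211 in each replicate number. Their median log2 deviations were -0.0052, 0.036 and -0.025 with miR-211 and 0.0078, 0.071 and 0.0082 with the control plasmid (replicates 1 to 3). For 35 of 36 genes the 95% interval lay inside a change of 1.5-fold in either direction, all but CENPA.

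**Figure D3:**
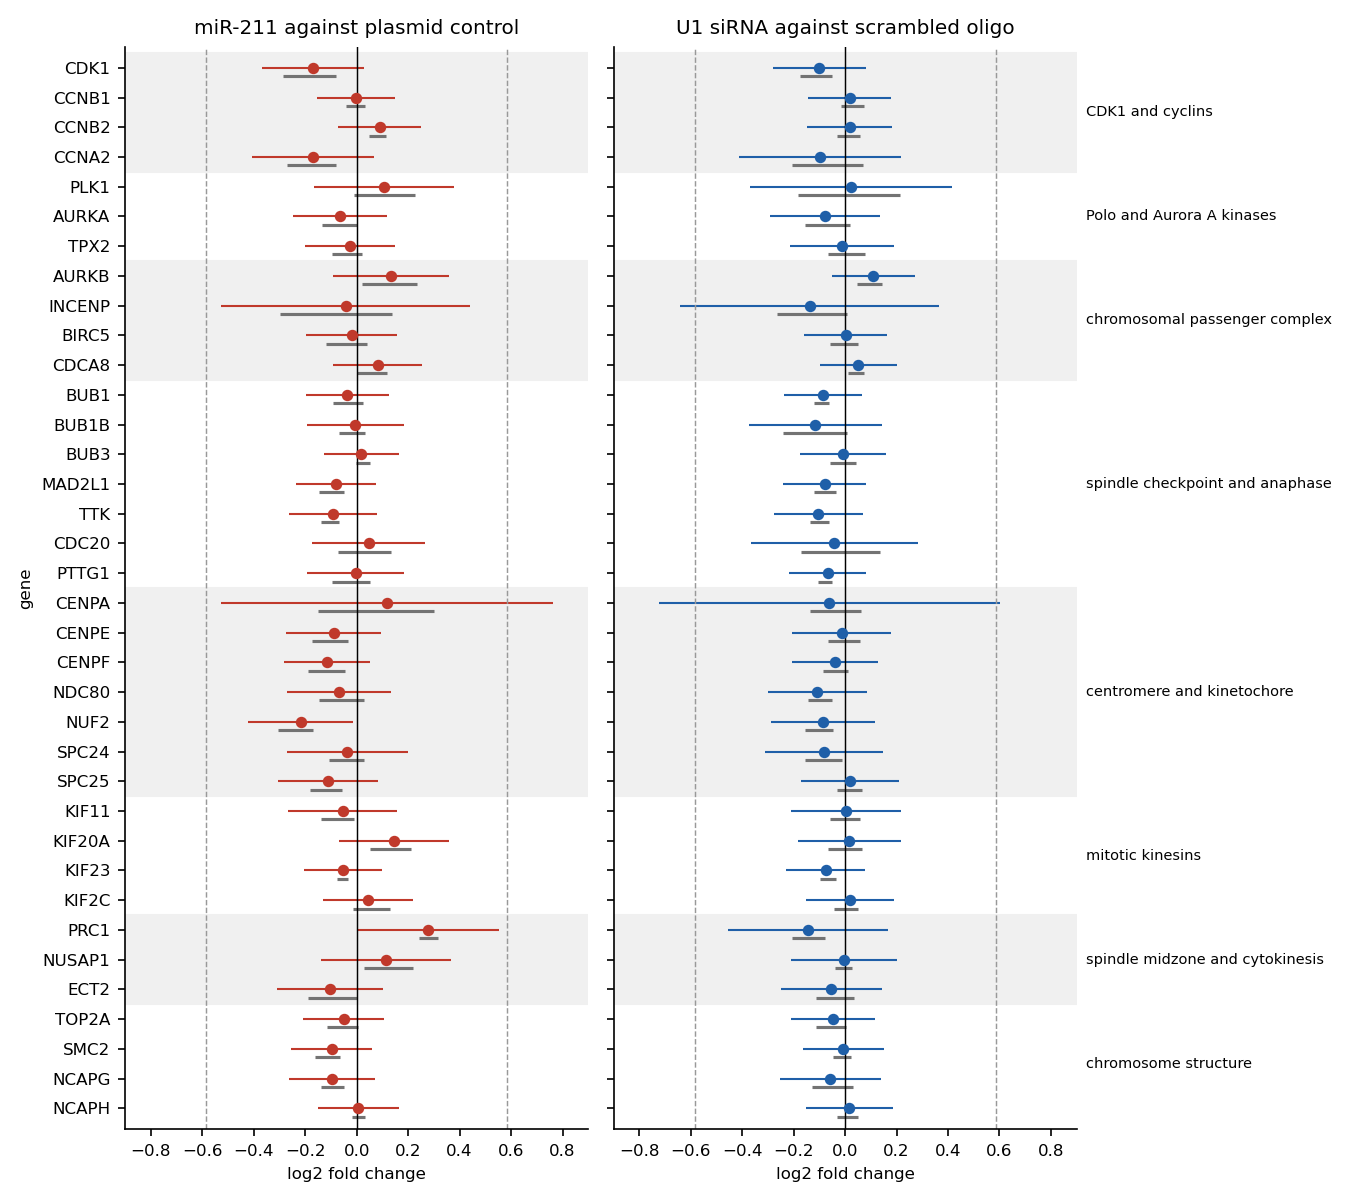
Log2 fold change of each gene (point) with its 95% interval (coloured line) in the miR-211 comparison (left) and the U1 siRNA comparison (right); the grey bar under each gene spans the values with each of the 6 libraries left out in turn, and dashed lines mark a 1.5-fold change. NUF2 and PRC1 on the left are the only intervals that miss 0, and no adjusted p was under 0.05 in either panel.

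CDK1 and cyclins: CDK1 (ENSG00000170312, chr10:60778331-60794852, plus strand, GRCh38) encodes the kinase that starts mitosis. CDK1 stood at 348, 409 and 308 CPM with miR-211, 399, 437 and 373 CPM with the control plasmid, 426, 382 and 411 CPM with U1 siRNA and 473, 451 and 386 CPM with the scrambled oligo (replicates 1 to 3). It was lower with miR-211 in each replicate number (log2 fold change -0.17, standard error 0.093, adjusted p = 0.996), but the 2 groups overlapped. With the replicate number as a block, the log2 fold change was -0.18 with a standard error of 0.055. In that fit CDK1 did not pass either (edgeR unadjusted p = 0.0065, adjusted p = 0.613). With U1 siRNA the difference was -0.10 (95% interval -0.28 to 0.082). CCNB1, which encodes the cyclin that activates CDK1 in mitosis, gave log2 fold changes of -0.0034 with miR-211 and 0.018 with U1 siRNA, with intervals of -0.16 to 0.15 and -0.14 to 0.18. CCNB1 stood at 723, 807 and 805 CPM with miR-211, 755, 810.2 and 797 CPM with the control plasmid, 822, 719 and 828 CPM with U1 siRNA and 828, 742 and 775 CPM with the scrambled oligo (replicates 1 to 3). CCNA2, the cyclin of S and G2 phase, had 34.0, 46.1 and 41.9 CPM with miR-211 and 48.0, 45.6 and 45.6 CPM with the control plasmid (log2 fold change -0.17). Its exons share 9.08% of their bases with EXOSC9 on the other strand. The 2 strand-specific counts of CCNA2 summed to 1.47 times its unstranded count. That sum takes in pairs of either gene over the shared bases, so how many pairs of CCNA2 are missing is not known. CCNB2, the other B-type cyclin here, ran from 148 to 186 CPM over the 12 libraries.

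PLK1, the Polo kinase of centrosome maturation and cytokinesis (ENSG00000166851, chr16:23677656-23690367, plus strand, GRCh38), varied most among the well counted genes. PLK1 stood at 77.1, 107 and 108 CPM with miR-211, 77.1, 93.3 and 104 CPM with the control plasmid, 87.1, 62.7 and 111 CPM with U1 siRNA and 77.2, 73.7 and 106 CPM with the scrambled oligo (replicates 1 to 3). Low and high libraries were shared between the groups: both replicates 1 with a plasmid were at 77.1 CPM, and the replicates 3 of all 4 groups lay between 104 and 111 CPM. The log2 fold changes were 0.11 (standard error 0.13) with miR-211 and 0.022 (standard error 0.18) with U1 siRNA. CDC20, which activates the APC/C, showed a like order. CDC20 stood at 107, 123 and 123 CPM with miR-211, 96.3, 120.5 and 128 CPM with the control plasmid, 107, 81.2 and 121 CPM with U1 siRNA and 96.8, 92.0 and 129 CPM with the scrambled oligo (replicates 1 to 3). Its fold changes were 0.046 with miR-211 and -0.042 with U1 siRNA. Replicates 3 held the highest value with the control plasmid and both oligos, and were about level with replicate 2 with miR-211. AURKA, the Aurora kinase of the spindle poles, and TPX2, its activator on the spindle, ran from 128 to 174 CPM and from 153 to 213 CPM over 12 libraries, each with its lowest value in U1 siRNA replicate 2.

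**Figure D4:**
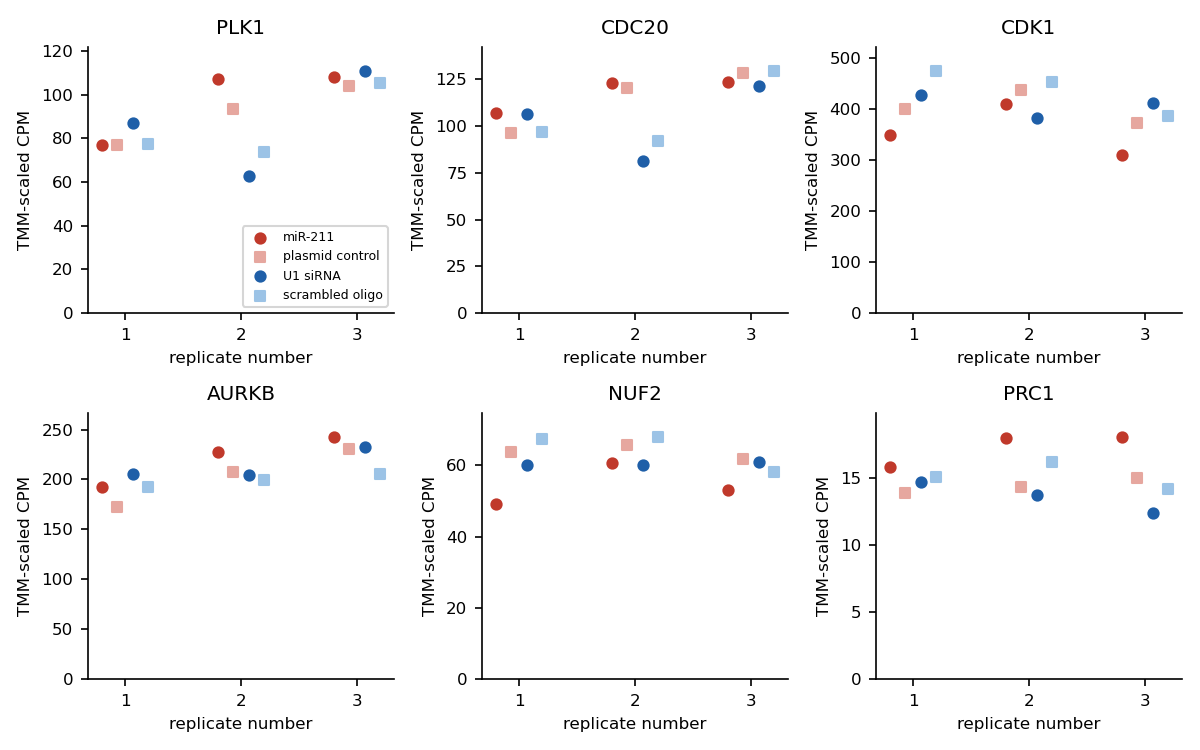
TMM-scaled CPM (y axis, from 0) of 6 genes against replicate number (x axis), with 1 point per library and colours for the 4 groups. PLK1 and CDC20 are highest at replicate number 3 with the control plasmid and both oligos, and about level with replicate 2 with miR-211. NUF2 and PRC1 separate the miR-211 libraries from their controls.

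AURKB is the kinase of the chromosomal passenger complex, which corrects faulty attachments and runs cytokinesis with INCENP, BIRC5 and CDCA8. AURKB stood at 193, 228 and 242 CPM with miR-211, 173, 207 and 231 CPM with the control plasmid, 205, 205 and 233 CPM with U1 siRNA and 193, 199.6 and 205 CPM with the scrambled oligo (replicates 1 to 3). Its log2 fold changes were 0.13 and 0.11, and neither passed the threshold (edgeR adjusted p = 0.996 and 0.9999). BIRC5 (survivin), which docks the complex on chromatin, ran from 504 to 629.9 CPM and CDCA8 (borealin), its partner, from 171 to 212 CPM, with 198, 191 and 212 CPM after U1 siRNA and 195, 189.8 and 195 CPM after the scrambled oligo. INCENP, the scaffold, had only 27 to 69 counts per library, and its interval in the U1 siRNA comparison (-0.64 to 0.37) crossed 1.5-fold. Of the 7 genes of the spindle checkpoint and anaphase, 7 had log2 fold changes below 0 with U1 siRNA, from -0.12 in BUB1B to -0.0090 in BUB3, and 4 of the 7 kept that sign with any 1 library left out. Of all 36 genes, 25 were below 0 there, while 54.7% of all tested genes were above 0. Without U1 siRNA replicate 2, 24 of the 36 were above 0. In that library 90.3% of the genes of like level lay below their own mean. With miR-211, 5 of the 7 were below 0, as were 24 of all 36. TTK, the checkpoint kinase also called MPS1, gave 117, 105 and 116 CPM after U1 siRNA against 129, 121 and 116 CPM after the scrambled oligo. BUB1, a kinase that recruits the checkpoint to kinetochores, had 260.3, 251 and 274 and 293, 267 and 276 CPM. In both genes the groups overlapped, and no gene of the checkpoint passed. BUB3, the partner of both BUB kinases, varied least of this group, at 773 to 909.5 CPM, MAD2L1 (MAD2), which with BUB1B inhibits CDC20, ran from 531 to 679.5 CPM and BUB1B (BUBR1) from 74.8 to 109 CPM. In BUB3 and BUB1B the lowest of the 12 values was in U1 siRNA replicate 2.

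At the kinetochore, NUF2 (ENSG00000143228, chr1:163266576-163355764, plus strand, GRCh38), a subunit of the NDC80 complex that grips microtubules, separated the groups. NUF2 stood at 49.0, 60.5 and 53.0 CPM with miR-211, 63.7, 65.6 and 61.8 CPM with the control plasmid, 60.1, 60.0 and 60.9 CPM with U1 siRNA and 67.4, 67.9 and 58.0 CPM with the scrambled oligo (replicates 1 to 3). All 3 miR-211 libraries lay below all 3 controls (log2 fold change -0.22, standard error 0.10, adjusted p = 0.996; unadjusted p = 0.0390), and the log2 fold change ran from -0.31 to -0.17 with any 1 library left out. With U1 siRNA its partner NDC80 had 75.6, 74.1 and 80.7 CPM against 90.8, 79.9 and 78.4 CPM (log2 fold change -0.11). The partners of NUF2 did not separate with miR-211: the log2 fold changes were -0.068 in NDC80, -0.036 in SPC24 and -0.11 in SPC25. With U1 siRNA the value in NUF2 was -0.087. The miR-211 libraries and their controls did not overlap in 2 of the 36 genes (NUF2 and PRC1), against 8.55% of all tested genes. PRC1 (ENSG00000198901, chr15:90966038-90995629, minus strand, GRCh38) bundles antiparallel microtubules in the spindle midzone. PRC1 stood at 15.8, 18.0 and 18.0 CPM with miR-211, 13.8, 14.3 and 15.0 CPM with the control plasmid, 14.7, 13.7 and 12.4 CPM with U1 siRNA and 15.0, 16.2 and 14.2 CPM with the scrambled oligo (replicates 1 to 3). Its 3 miR-211 libraries lay above the controls (log2 fold change 0.28, standard error 0.13, adjusted p = 0.996), and the difference between both effects was 0.41 (unadjusted p = 0.0323, adjusted p = 0.999). PRC1 shares 58.4% of its exon bases with other genes, among them the readthrough gene AC068831.7, and had only 66 to 147 counts per library. Among the other kinetochore genes CENPF ran from 313 to 412 CPM and CENPE, a kinesin that moves chromosomes to the spindle equator, from 115 to 145 CPM. KIF20A, a kinesin of the midzone that works with AURKB, had 154, 174 and 195 CPM with miR-211 and 139, 172 and 166 CPM with its control, and log2 fold changes of 0.15 with miR-211 and 0.016 with U1 siRNA, neither past the threshold.

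The coefficient of variation over the 12 libraries was 5.63% to 7.17% in the 4 genes of chromosome structure, and 9.33%, 9.17% and 11.1% in ECT2, NUSAP1 and PRC1 of the midzone and cytokinesis. TOP2A, the topoisomerase that untangles sister DNA, ran from 471 to 606 CPM, with its lowest value in U1 siRNA replicate 2 and its highest in plasmid control replicate 2. The condensin genes SMC2, NCAPG and NCAPH ran from 201 to 239 CPM, 108 to 146 CPM and 116 to 139 CPM. ECT2, which activates RhoA for the cleavage furrow, ran from 147 to 201 CPM, and KIF23, its midzone kinesin partner, from 159 to 185 CPM, the lowest coefficient of variation of the 36 (4.17%). KIF2C, which depolymerises microtubules at centromeres, ran from 145 to 175 CPM, with 152, 149.7 and 172 CPM after U1 siRNA and 162, 148 and 158 CPM after the scrambled oligo. None of these passed in any comparison.

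With U1 siRNA, 0 of 12413 genes and none of the 36 passed in edgeR, DESeq2 or limma-voom (0% called; adjusted p = 0.9999 for all 36). At an unadjusted p under 0.05 there were 0 of 36 against 1.58% of all tested genes. The fold changes ran from -0.14 in PRC1 to 0.11 in AURKB, and 11 of 36 were above 0 against 54.7% of all tested genes, with a median of -0.044. Without U1 siRNA replicate 2 that count was 24 and the median 0.027. Without the filter on low counts, which the TMM scaling also uses, it was 1 and the median -0.11. Here too all tested genes are a background of lower level. In U1 siRNA replicate 2, the genes of like level were low as well (median log2 deviation -0.13). For 34 of 36 genes the interval lay inside 1.5-fold, all but INCENP and CENPA. Groups did not overlap in 0 of 36, against 6.07% of all tested genes.

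The control plasmid and scrambled oligo libraries were compared because they are controls of 2 kinds of transfection. This comparison shares its libraries with the other two, and delivery, dose and any batch cannot be told apart in it. Here 0 of 12650 genes passed in edgeR (0% called), 40 in DESeq2 and 3 in limma-voom, none of them among the 36. At an unadjusted p under 0.05 there were 4 of 36 against 7.79% of all tested genes. PTTG1 had 333, 393 and 377 CPM with the control plasmid and 439, 432 and 398 CPM with the oligo (log2 fold change -0.22, adjusted p = 0.491). SPC24 had 33.2, 34.8 and 38.6 and 44.0, 37.9 and 46.5 CPM (log2 fold change -0.29). KIF11, the kinesin that pushes spindle poles apart, had 54.7, 56.3 and 60.7 and 50.1, 52.7 and 44.7 CPM (log2 fold change 0.21), and CENPF, a kinetochore protein of late G2, 375, 412 and 393 and 377, 345 and 322 CPM (log2 fold change 0.16). CCNA2 had 48.0, 45.6 and 45.6 and 40.7, 39.4 and 42.0 CPM (log2 fold change 0.17), and NUSAP1 39.1, 42.2 and 39.5 and 46.4, 42.5 and 46.7 CPM (log2 fold change -0.18). The log2 fold changes of CDK1, CCNB1, PLK1 and AURKB were -0.13, -0.0056, 0.075 and 0.016. Groups did not overlap in 5 of 36 (PTTG1 and NUSAP1 lower, CCNA2, KIF11 and NCAPH higher with the plasmid), against 13.8% of all tested genes, and 17 of 36 were above 0 against 48.8%.

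The miR-211 effect minus the U1 siRNA effect passed in 0 of 36 genes, against 0.0074% of 13520 tested (MIR211 alone). At an unadjusted p under 0.05 it was PRC1 alone, against 1.73% of all tested genes. The next values by p were 0.12 in KIF20A and 0.10 in NUSAP1 above 0, and -0.14 in SPC25, -0.14 in NUF2 and -0.10 in SMC2 below. For CDK1, CCNB1, PLK1 and AURKB they were -0.083, -0.035, 0.069 and 0.010.

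The difference between group means was smaller than the widest range within a group for 35 of 36 genes with miR-211 and for 36 of 36 with U1 siRNA, against 96.1% and 97.3% of all tested genes. In U1 siRNA replicate 2, 33 of 36 lay below their own mean over the 12 libraries (median log2 deviation -0.12). This was shared by other genes of that level: of 1558 tested genes with a mean level between 83.4 and 237 CPM, 90.3% lay below their own mean there (median -0.13), as did 31 of 38 DNA replication genes. In miR-211 replicate 1, 28 of 36 lay below their mean (median -0.093) against 51.1% of the genes of that level (median -0.0052). In plasmid control replicate 1, 23 of 36 (63.9%) lay below it, against 47.0% of those genes. The share below was smaller than among genes of that level in miR-211 replicate 2 (5 of 36, 13.9%, against 32.6%) and U1 siRNA replicate 3 (6 of 36, 16.7%, against 28.8%). In plasmid control replicate 2 it was near theirs, at 5 of 36 against 17.3%. In the plasmid arm, the lowest library bore the same replicate number in both groups for 21 of 36 genes and the highest for 27 of 36, against 46.0% and 41.8% of all tested genes. In the oligo arm these counts were 17 and 17, against 36.9% and 40.4%. Below the control with the same replicate number in all 3 pairs were 16 of 36 genes with miR-211 and above it 3, against 16.0% and 13.3% of all tested genes. With U1 siRNA these counts were 4 and 2, against 9.42% and 10.3%. The shares by replicate number are of all tested genes, whose median level was lower. They were not taken for the 1558 genes of like level. The labels do not tell what a replicate number stands for.

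**Figure D5:**
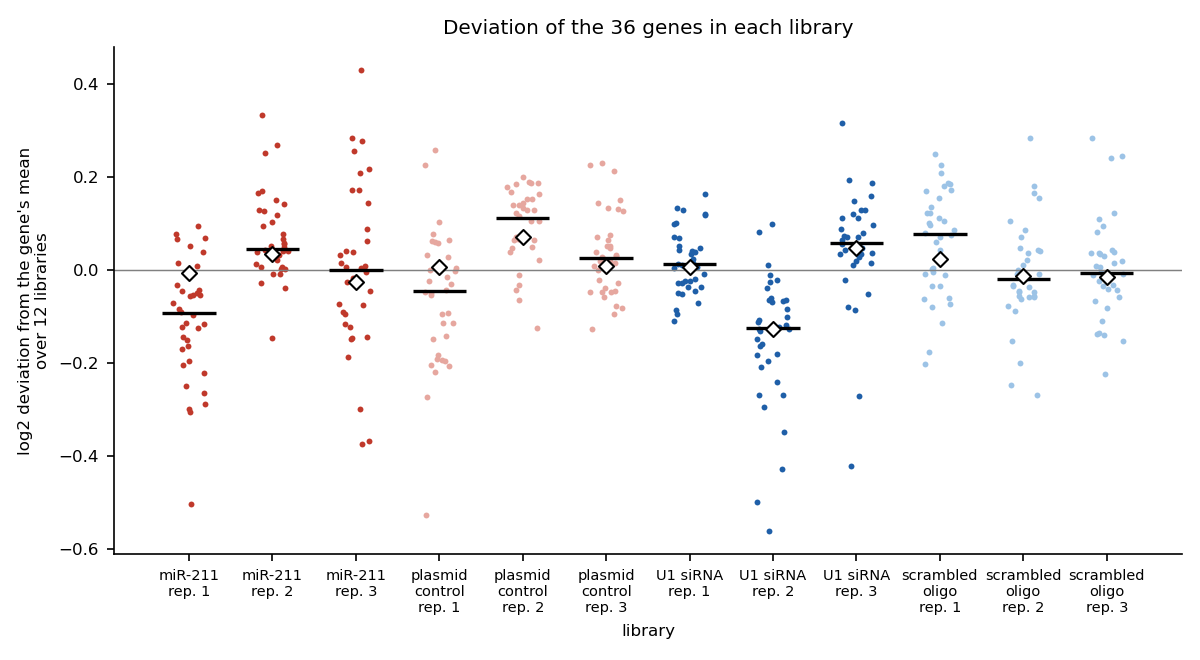
Log2 deviation of each of the 36 genes (points) from its own mean in each library, with the median of the 36 (bar) and the median of 1558 tested genes of like level (diamond). The bar and the diamond lie together in U1 siRNA replicate 2 and apart in miR-211 replicate 1.

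Counting limits bear on a few genes. NUSAP1, a microtubule bundler of the midzone, shares 62.2% of its exon bases with AC087721.2 and NCAPG, a condensin subunit, 33.1% with LCORL on the other strand. A pair over such bases is counted for no gene. Counting by strand gave 1.31 times the unstranded count in PLK1, 1.22 times in KIF23, 1.15 times in KIF2C and 1.12 times in NCAPG, against 1.01 times in PRC1 and 1.01 times in NUSAP1. The gene that overlaps NUSAP1 lies on its own strand, and PRC1 overlaps AC068831.7 on its own strand and, over fewer bases, PRC1-AS1 on the other.

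Of 119 related genes of the kinetochore, spindle, condensin and cohesin, mitotic entry and exit, and G2/M gene transcription, 115 passed the filter on low counts and none passed the adjusted threshold in either comparison. With miR-211, 49 of 115 were above 0 (median -0.019), against 51.8% of all tested genes. With U1 siRNA it was 42 of 115 (median -0.022), against 54.7%. An unadjusted p under 0.05 (edgeR) was found in 5 of 115 with miR-211, against 3.29% of all tested genes. With U1 siRNA it was found in 1 of 115, against 1.58%. Named next are the highest and the lowest gene of each list by p and sign, with log2 fold changes. With miR-211 the lowest were SGO1, the protector of centromeric cohesion (-0.30), the spindle protein CKAP2 (-0.17), the cohesin subunit SMC3 (-0.13), MASTL (Greatwall, -0.18) and LIN54, the DREAM subunit that reads the CHR (-0.35, and 0.17 with U1 siRNA). The highest were the kinetochore protein ZWINT (0.14), TACC3 of the spindle (0.31), the condensin subunit NCAPD2 (0.20), ANAPC11, the RING subunit of the APC/C (0.24), and the DREAM subunit LIN37 (0.32). Of these, SGO1, LIN54, NCAPD2 and ANAPC11 had an unadjusted p under 0.05. With U1 siRNA the lowest were CENPQ of the inner kinetochore (-0.27, the only unadjusted p under 0.05 among these 10), DLGAP5 (-0.13), the cohesin subunit STAG2 (-0.14), the CDK1 inhibitory kinase WEE1 (-0.19) and FOXM1 (-0.11). The highest were the checkpoint protein MAD1L1 (0.35), KIF14 (0.074), separase ESPL1 (0.20), the CDK1 phosphatase CDC25C (0.089) and TFDP1 (0.13). In edgeR the adjusted p of these genes was 0.996 with miR-211 and 0.9999 with U1 siRNA.

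Whether the plasmid's microRNA could pair with these transcripts was read from their letters. Mature miR-211-5p, shown with its seed (bases 2 to 8) in capitals, shares that seed with miR-204-5p (RefSeq).
hsa-miR-211-5p: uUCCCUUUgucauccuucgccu
Matches to the seed (8mer AAAGGGAA, 7mer-m8 AAAGGGA, 7mer-A1 AAGGGAA) in annotated 3′ UTRs (GENCODE 29) were present in 6 of 36 genes (16.7%) against 32.5% of 10901 tested genes, in 3′ UTRs that are shorter (median of the longest 799.5 against 1517 bases). The 8mer was found in SMC2 alone of the 36, a condensin subunit, and its site and the 7mer-m8 site of CCNA2 are shown with the match in capitals.
SMC2, 8mer match at chr9:104139757-104139764, plus strand: actggaccaacAAAGGGAAcacatataaag
CCNA2, 7mer-m8 match at chr4:121816556-121816562, minus strand: tctctaatgaaAAAGGGAtgtctttttgt
The genes with a match were at -0.17 (CCNA2), 0.082 (CDCA8), 0.12 (CENPA), -0.090 (CENPE), 0.15 (KIF20A) and -0.10 (SMC2) with miR-211 on the log2 scale, so 3 were below and 3 above 0. None passed the threshold.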

How the data were processed

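RNA sequencing with paired-end reads of 126 nt was done on 12 libraries of HEK293T cells, 3 in each of 4 groups, per the labels. The deposited values are counts per gene, which the authors did not normalise: each file has an unstranded count, 2 strand-specific counts and 4 summary lines, and the last of these entered neither library sizes nor tests. STAR 2.7.2a and GRCh37 are named in the submitters' processing notes, but all 58735 gene identifiers are those of GENCODE 29 on GRCh38, from which coordinates and lengths were taken. Library selection and strandedness are not stated in the labels. The totals of the 2 strand-specific counts stood at a ratio of 0.990 to 1.10 in the 12 libraries. By that ratio the libraries were not strand-specific. The unstranded count was used. Neither it nor the strand-specific counts can separate overlapping antisense genes in such libraries.

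Tests of the counts used edgeR 4.0.16 under R 4.3.3 (TMM scaling, filterByExpr, quasi-likelihood test, Benjamini-Hochberg adjusted p under 0.05 over all genes tested) on the 6 libraries of each comparison, with all 12 libraries for the difference between effects. The method was tested on simulated data. DESeq2 1.42.0 and limma 3.58.1 served as alternatives. Promoter and microRNA sequences are from RefSeq. Of the replicate pairs, none agreed within counting noise (chi-square over its degrees of freedom 2.15 to 7.25). Same-numbered libraries deviated together in the plasmid arm, with correlations of 0.247, 0.303 and 0.239. The labels do not state what a replicate number stands for.

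The 36 genes and the related lists were chosen with earlier results of these data known. Genes named with values were those past the threshold or, as none was, the 3 highest and 3 lowest by signed p, plus CDK1, CCNB1, PLK1 and AURKB, and for each related list the highest and lowest (printed for the miR-211 and U1 siRNA comparisons only). CDC20, NUF2's partners, the genes with microRNA sites, LIN54 in the oligo arm and the ends of ranges were named outside that rule.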

Additional observations from a re-analysis of the deposited data

How the results depend on the processing

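No alternative called any of the 36 genes in any of the 3 comparisons or in the difference between effects. The alternatives were DESeq2, limma-voom, library size alone, no filter on low counts, the strand columns, all 12 libraries in 1 fit, a covariate for the share of pairs outside genes, the replicate block, and each library left out. The difference between effects was refitted only with DESeq2, the replicate block and each library left out. With 1 of the strand columns, 35 of the 36 genes were tested for miR-211 and for plasmid control against scrambled oligo. For miR-211, genes called over all tested genes numbered 2 without the filter and 2 with either strand column. Of the 36, those above 0 numbered 21 with the covariate and 7 to 21 with a library left out. For U1 siRNA, genes called over all tested genes numbered 7 without the filter. Of the 36, those above 0 numbered 1 without the filter, 18 with the covariate and 5 to 24 with a library left out. For plasmid control against scrambled oligo, genes called numbered 40 with DESeq2, 3 with limma-voom, 4 with library size alone, 51 without the filter, 4 and 6 with the strand columns, and 0 to 21 with a library left out (21 without scrambled oligo replicate 3). Members above 0 there numbered 10 with the covariate and 12 to 23 with a library left out. Genes called in the difference between effects numbered 0 to 1 with a library left out.

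Deviations of same-numbered libraries correlated at 0.247, 0.303 and 0.239 in the plasmid arm, at 0.138, 0.089 and -0.046 in the oligo arm, and at 0.044, 0.029 and 0.174 between plasmid control and scrambled oligo, so the numbers were taken to pair libraries only in the plasmid arm. With the replicate block, genes called numbered 30 for plasmid control against scrambled oligo and 0 for the difference between effects. The block changed no other call, and for miR-211 it raised the genes at an unadjusted p under 0.05 from 417 to 943 of 12685.

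With each library left out in turn, the sign of the log2 fold change held for 18 of 36 genes with miR-211, 12 of 36 with U1 siRNA and 21 of 36 for plasmid control against scrambled oligo. It turned for these genes, among others. With miR-211 the values ran from -0.041 to 0.030 in CCNB1, -0.010 to 0.23 in PLK1, -0.073 to 0.13 in CDC20, -0.15 to 0.30 in CENPA, -0.15 to 0.030 in NDC80 and -0.11 to 0.029 in SPC24. With U1 siRNA they ran from -0.015 to 0.072 in CCNB1, -0.21 to 0.068 in CCNA2, -0.18 to 0.21 in PLK1, -0.26 to 0.0093 in INCENP, -0.24 to 0.0079 in BUB1B, -0.059 to 0.040 in BUB3, -0.17 to 0.14 in CDC20, -0.068 to 0.066 in KIF20A, -0.044 to 0.052 in KIF2C and -0.0038 to 0.14 in KIF14. For plasmid control against scrambled oligo they ran from -0.044 to 0.048 in CCNB1, -0.026 to 0.27 in PLK1 and -0.082 to 0.12 in AURKB. The cause was not tested. Depth limits CENPA, INCENP and PRC1, which had 13 to 147 counts per library. Intervals cover the spread between libraries as the model estimates it.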
